A study of Mus musculus with 6 samples.

Results

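A set of 10 genes of type 2 immunity was followed in the lungs of WT and ISM1-/- mice without allergen challenge. They are the alarmins *Il33* and *Tslp*, the cytokines *Il4*, *Il5* and *Il13*, the receptor chains *Il1rl1*, *Il4ra*, *Il13ra1* and *Il5ra*, and the transcription factor *Gata3*. The genes were chosen by name and all 10 have an entry among the 54532 genes of the count table. The lungs were perfused, and RNA of the whole organ was sequenced from 3 mice per genotype at an age of 2 months, with 1 library per mouse. Both groups are C57BL/6J mice. The WT mice were bought from a vendor and the knockout line was made by the laboratory, so an effect of genotype and an effect of where the mice came from cannot be told apart. Total counts were between 37606133 and 42345042 per library. Because whole lung was sequenced, fewer cells of a type and less RNA per cell cannot be told apart either.

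Alarmins are released by barrier cells on injury or on contact with allergens. IL-33 acts through ST2, the product of *Il1rl1*, together with the shared chain encoded by *Il1rap*, and TSLP acts through a receptor built from the products of *Crlf2* and *Il7r*. Group 2 innate lymphoid cells and helper T cells answer with IL-4, IL-5 and IL-13 under the control of GATA3. IL-4 and IL-13 then signal through IL-4Rα and STAT6 to airway epithelium, macrophages and fibroblasts, and IL-5 acts on eosinophils through IL-5Rα.

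The libraries labelled ISM1-KO still held reads of the targeted gene. *Ism1* had 3098, 3215 and 2975 reads in WT against 2784, 2508 and 2953 reads in ISM1-/- libraries. Values were scaled to a common library size by the trimmed mean of M values (TMM) and are given as CPM. On this scale the level was 78.9 ± 2.88 CPM in WT and 69.1 ± 5.72 CPM in ISM1-/- lungs (SD, n = 3), or 87.6% of the WT level. All ISM1-/- libraries lay below all WT libraries, but the difference did not pass the test (log2 fold change -0.19, SE 0.0709, adjusted p = 0.217, edgeR). Gene counts do not show whether these transcripts are intact. The tissue label was checked against *Sftpc* and *Scgb1a1*, which encode surfactant protein C and a club cell secretory protein. Their levels were 15646 to 17281 and 27304 to 46154 FPKM in the 6 libraries, a unit that corrects counts for library total and gene length.

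The promoter sequences of the 3 cytokine genes and of *Il1rl1* are shown because these genes carry letters that GATA factors or STAT6 can bind. The windows are the 250 bases before a RefSeq transcription start, read 5′ to 3′ on the gene's strand, on GRCm38.p6. Capitals mark GATA words, which are the letters GATA with A or T before them and A or G after them, or the STAT6 word TTCNNNNGAA, on either strand. No window of these genes held both kinds of word, and *Tslp* had no window among those searched.
Il4, chr11:53618666-53618915, minus strand: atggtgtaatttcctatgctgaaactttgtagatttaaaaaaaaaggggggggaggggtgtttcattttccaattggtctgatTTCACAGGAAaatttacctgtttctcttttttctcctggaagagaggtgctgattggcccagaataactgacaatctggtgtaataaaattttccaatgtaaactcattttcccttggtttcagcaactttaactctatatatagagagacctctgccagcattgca
Il5, chr11:53720544-53720793, plus strand: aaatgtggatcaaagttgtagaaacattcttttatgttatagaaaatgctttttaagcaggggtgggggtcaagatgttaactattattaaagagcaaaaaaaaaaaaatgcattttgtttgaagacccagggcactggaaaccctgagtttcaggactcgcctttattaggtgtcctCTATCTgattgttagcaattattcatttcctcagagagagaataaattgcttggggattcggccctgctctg
Il13, chr11:53634703-53634952, minus strand: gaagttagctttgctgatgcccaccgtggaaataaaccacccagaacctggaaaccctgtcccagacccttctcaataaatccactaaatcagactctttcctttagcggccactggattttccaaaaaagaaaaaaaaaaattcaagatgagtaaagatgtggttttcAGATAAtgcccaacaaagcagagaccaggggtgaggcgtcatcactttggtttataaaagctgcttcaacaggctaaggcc
Il1rl1, first start, chr1:40429320-40429569, plus strand: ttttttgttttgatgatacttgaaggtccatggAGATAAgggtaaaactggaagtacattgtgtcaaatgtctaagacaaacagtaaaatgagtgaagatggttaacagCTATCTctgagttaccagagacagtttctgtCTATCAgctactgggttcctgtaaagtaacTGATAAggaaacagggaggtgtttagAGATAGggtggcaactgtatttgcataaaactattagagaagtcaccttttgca
Il1rl1, second start, chr1:40439379-40439628, plus strand: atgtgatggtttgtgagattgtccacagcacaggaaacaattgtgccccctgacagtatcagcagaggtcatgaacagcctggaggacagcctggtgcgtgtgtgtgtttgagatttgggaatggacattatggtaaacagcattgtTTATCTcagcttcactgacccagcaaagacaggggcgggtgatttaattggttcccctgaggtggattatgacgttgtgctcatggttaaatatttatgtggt

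The window at the first start of *Il1rl1* held 5 GATA words, which begin 217, 141, 110, 80 and 54 bases before the start, and the window at its second start held 1 at 103 bases. *Il5* and *Il13* each had 1 GATA word, 72 and 81 bases before the start. The *Il4* window held 1 STAT6 word, 167 bases before the start, and a second *Il4* start (chr11:53617339-53617588) held 1 GATA word at 80 bases. Among the other genes, *Il5ra* had 1 GATA word at 74 bases, and the first start of *Il33* had 1 STAT6 word at 36 bases. In all, 6 of 12 windows of 9 of the genes held a GATA word and 2 held a STAT6 word. Among all 32851 windows of the same length, 26.5% held a GATA word and 5.85% a STAT6 word. A match of letters is a description of the sequence and no evidence of binding. The gene counts do not separate transcripts from the 2 starts of *Il1rl1*.

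None of the 10 genes was called different between the genotypes. Of the 10, 7 passed the filter of at least 0.5 CPM in at least 1 library, and 0 of these 7 were called by edgeR's quasi-likelihood test at an adjusted p under 0.1, where 4.72% of all 18689 genes tested were called. With a 2-fold minimum the count was again 0, beside 0.567% of all genes. At an unadjusted p under 0.05 the count was 0 of 7 (15.8% of all genes), and DESeq2 also called 0 of 7 (6.88% of all genes). The CPM ranges of the genotypes overlapped for all 7, whereas 21.6% of all genes tested had ranges apart (9.33% with ISM1-/- above WT and 12.3% below). The mean was higher in ISM1-/- lungs for 5 genes and lower for 2, and the median log2 fold change of the 7 was 0.04, beside 0.0043 over all genes tested. The lowest adjusted p among them was 0.573, for *Il5ra*.

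*Il33* encodes an alarmin held in the nucleus of epithelial and other barrier cells (chr19:29925114-29960718). It had 3083, 4536 and 3552 reads in WT against 4439, 3400 and 4231 reads in ISM1-/- libraries. The highest and the lowest library were both WT, so the ISM1-/- libraries lay inside the WT range. Scaled levels were 94.3 ± 13.9 CPM in WT and 101 ± 9.92 CPM in ISM1-/- lungs (SD, n = 3). The log2 fold change was 0.10 (SE 0.107, 95% interval -0.14 to 0.34, adjusted p = 0.736, edgeR), and it was 0.22 without WT replicate 2 and 0.0051 without WT replicate 1.

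*Tslp*, on chromosome 18, encodes the second epithelial alarmin. It had 144, 126 and 141 reads in WT against 149, 116 and 165 reads in ISM1-/- libraries. An ISM1-/- library was highest, and the 2 libraries numbered 2 were lowest, at 3.04 and 3.06 CPM. Levels were 3.50 ± 0.411 CPM in WT and 3.60 ± 0.591 CPM in ISM1-/- lungs (SD, n = 3), with a log2 fold change of 0.04 (SE 0.169, 95% interval -0.34 to 0.42, adjusted p = 0.945, edgeR).

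**Figure D1:**
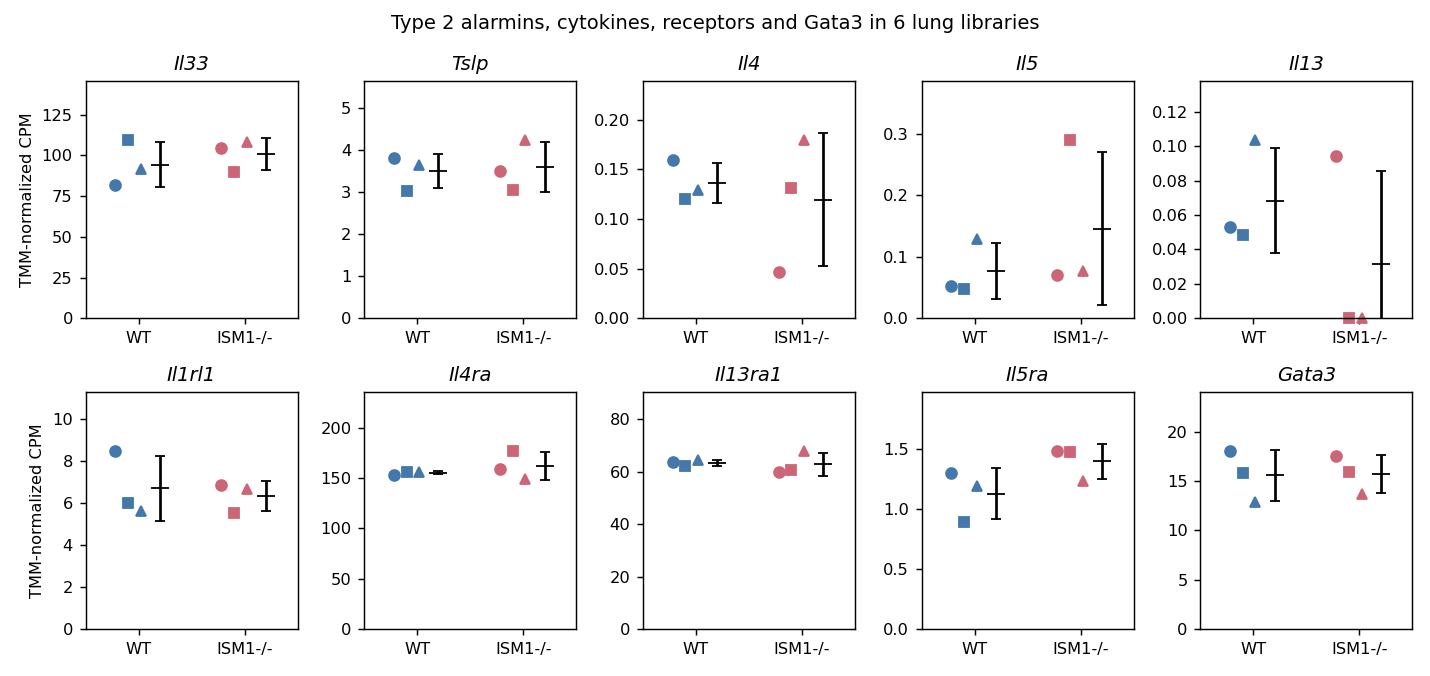
TMM-normalized CPM of the 10 genes in each library, with WT in blue and ISM1-/- in red; circles, squares and triangles are replicates 1, 2 and 3, black bars are mean ± SD (n = 3), and the lower bar of *Il13* in ISM1-/- is cut at 0. The points of the genotypes overlap in every panel, and the 3 cytokines lie below 0.3 CPM.

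*Il1rl1* encodes ST2, the receptor of IL-33 (chr1:40429570-40465415). Its read counts were 320, 249 and 218 in WT against 291, 209 and 261 in ISM1-/- libraries. WT replicate 1 was the highest library, at 8.49 CPM, and the other libraries of both genotypes lay between 5.51 and 6.84 CPM. Levels were 6.71 ± 1.55 CPM in WT and 6.35 ± 0.731 CPM in ISM1-/- lungs (SD, n = 3). The log2 fold change was -0.08 (SE 0.169, 95% interval -0.45 to 0.30, adjusted p = 0.880, edgeR), and its sign turned without WT replicate 1 (0.13, adjusted p = 0.764).

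*Il4ra* encodes the chain shared by the IL-4 and IL-13 receptors (chr7:125552120-125579474). It had 5786, 6495 and 6038 reads in WT against 6763, 6712 and 5828 reads in ISM1-/- libraries. The WT libraries lay close together, and ISM1-/- libraries lay on both sides of them. Levels were 155 ± 1.66 CPM in WT and 162 ± 14.0 CPM in ISM1-/- lungs (SD, n = 3), a coefficient of variation of 1.07% against 8.63%. The log2 fold change was 0.06 (SE 0.0679, 95% interval -0.09 to 0.21, adjusted p = 0.749, edgeR).

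*Il13ra1* encodes the chain that pairs with IL-4Rα and binds IL-13 (chrX:36112110-36171259). Its read counts were 2400, 2584 and 2495 in WT against 2548, 2296 and 2650 in ISM1-/- libraries. Here too the WT libraries were the tighter group, with a coefficient of variation of 1.79% against 7.10%, and ISM1-/- libraries lay on both sides. The log2 fold change was -0.02 (SE 0.0663, 95% interval -0.16 to 0.13, adjusted p = 0.945, edgeR). No test of a difference in spread was made with 3 libraries per genotype.

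*Il5ra* encodes the IL-5 binding chain of the receptor of eosinophils (chr6:106710357-106749037). It had 49, 37 and 46 reads in WT against 63, 56 and 48 reads in ISM1-/- libraries. ISM1-/- replicates 1 and 2 lay above all WT libraries, and replicate 3, at 1.23 CPM, lay below WT replicate 1, at 1.30 CPM. Levels were 1.13 ± 0.211 CPM in WT and 1.40 ± 0.144 CPM in ISM1-/- lungs (SD, n = 3). The log2 fold change was 0.31, with the largest error of the 7 genes (SE 0.230, 95% interval -0.20 to 0.82, adjusted p = 0.573, edgeR), and it was 0.17 without WT replicate 2. Among the eosinophil markers, *Epx* had 0 counts in all 6 libraries and *Prg2*, which encodes the major basic protein, had at most 10. Other genes of that list, which macrophages also express, were well detected, with 47.3 to 61.6 CPM for *Ear2*, 14.5 to 18.0 CPM for *Ear1* and 10.1 to 14.4 CPM for *Siglecf*. *Ccr3*, also on the list, had 3, 14 and 4 reads in WT against 25, 15 and 3 reads in ISM1-/- libraries. Its ranges overlapped and it did not pass the test (adjusted p = 0.56, edgeR). *Alox15* of the same list was lower in ISM1-/- lungs (log2 fold change -0.82, adjusted p = 0.175, edgeR). Of the 6 tested genes of the list, 2 had a higher mean in ISM1-/- lungs and 4 a lower mean. The list summed to 88.2 to 97.0 CPM in WT and 75.7 to 95.6 CPM in ISM1-/- libraries.

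*Gata3* encodes the transcription factor that directs type 2 lymphocytes (chr2:9857078-9890034). Its read counts were 680, 654 and 499 in WT against 747, 603 and 535 in ISM1-/- libraries. The genotypes covered overlapping ranges, 12.9 to 18.0 CPM in WT and 13.7 to 17.6 CPM in ISM1-/- lungs. The log2 fold change was 0.02 (SE 0.131, 95% interval -0.28 to 0.31, adjusted p = 0.976, edgeR).

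The intervals set the size of change that these libraries leave possible. For all 7 genes the 95% interval held no change as large as 2-fold in either direction. It was narrowest for *Il13ra1*, from 0.893-fold to 1.10-fold, and for *Il4ra*, from 0.937-fold to 1.16-fold. For *Il33* it ran from 0.906-fold to 1.26-fold and for *Il5ra* from 0.870-fold to 1.77-fold. At the observed errors, a gene would have needed a change of 1.18-fold for *Il13ra1*, 1.31-fold for *Il33* and 1.78-fold for *Il5ra* to reach the largest p among the called genes, 0.00471.

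**Figure D2:**
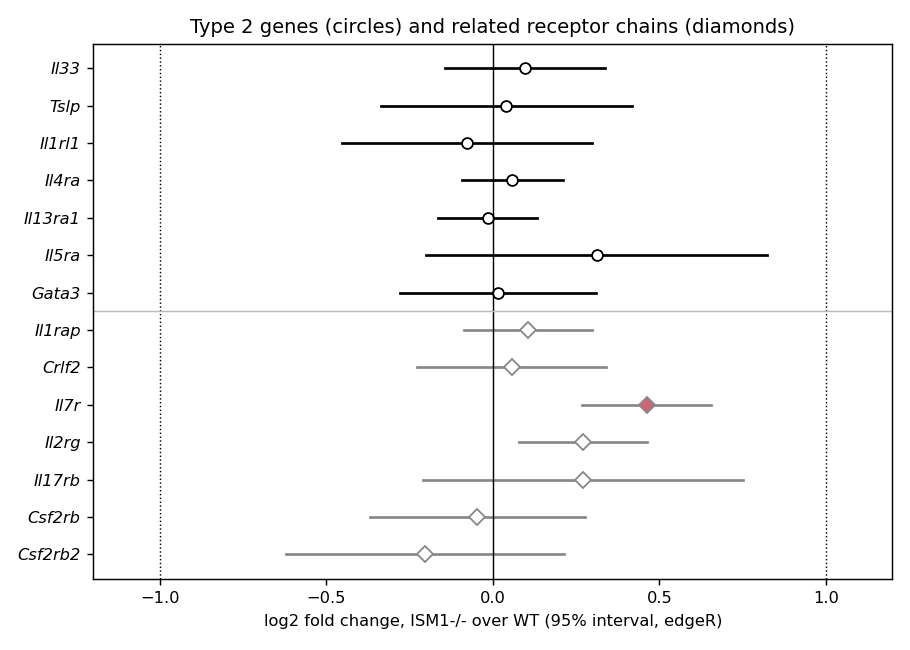
Log2 fold change (ISM1-/- over WT) with the 95% interval from edgeR for the 7 tested genes (black circles) and 7 receptor chains of the same or related ligands (grey diamonds); dotted lines mark a 2-fold change and a filled symbol an adjusted p under 0.1. The intervals of all 7 circles cross 0, and *Il7r* is the filled symbol at 0.46.

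The 3 type 2 cytokines had few reads in either genotype, at most 11 counts in a library. They lie together on chromosome 11, at chr11:53602982-53618669 for *Il4*, chr11:53631324-53634702 for *Il13* and chr11:53720794-53725106 for *Il5*. None passed the filter, so they are given as counts with exact intervals, which cover counting error only. The exact permutation tests were two-sided, and with 3 libraries per genotype they cannot give a p below 0.1.

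*Il4*, which drives helper T cells and IgE class switching, had 6, 5 and 5 reads in WT against 2, 5 and 7 reads in ISM1-/- libraries. The ISM1-/- libraries lay on both sides of the WT libraries. They held 14 of 30 counts, or 46.7% (95% Clopper-Pearson interval 28.3 to 65.7), where they held 50.5% of all counts in the table (exact permutation p = 0.9).

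*Il5*, which drives the growth and survival of eosinophils, had 2, 2 and 5 reads in WT against 3, 11 and 3 reads in ISM1-/- libraries. ISM1-/- replicate 2 held most of the ISM1-/- reads, and the other libraries overlapped. The ISM1-/- share was 17 of 26 counts, or 65.4% (interval 44.3 to 82.8, exact permutation p = 0.5). The antisense gene *Gm12214* overlaps *Il5* and had 20, 15 and 12 reads in WT against 10, 7 and 10 reads in ISM1-/- libraries. The setting for strand in the counting is not given in the sources used here, so the *Il5* counts are uncertain.

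*Il13*, which drives mucus production in the airway, had 2, 2 and 4 reads in WT against 4, 0 and 0 reads in ISM1-/- libraries. All ISM1-/- reads were in replicate 1. The ISM1-/- share was 4 of 12 counts, or 33.3% (interval 9.92 to 65.1, exact permutation p = 0.3). The 3 cytokines together had 33 counts among 117667081 in WT and 35 among 119898167 in ISM1-/- libraries. A difference between the genotypes was not detectable at this depth for any of the 3.

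Levels of different genes were compared per length, as FPKM. *Il33* and *Il4ra* were highest, with mean levels of 74.4 and 69.0 FPKM over the 6 libraries, and *Il33* was the higher in 4 of 6 libraries. *Gata3* and *Il13ra1* followed at 17.1 and 17.0 FPKM, and then *Tslp* at 3.13 and *Il1rl1* at 2.23 FPKM. The ranges of the genes in each of these pairs overlapped, although *Tslp* was above *Il1rl1* in 6 of 6 libraries. *Il5ra* had a mean of 0.501 FPKM, and *Il4*, *Il5* and *Il13* had means of 0.225, 0.0724 and 0.0414 FPKM. *Il5* was above *Il13* in only 2 of 6 libraries, and their ranges overlapped, as did those of *Il4* and *Il5*.

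**Figure D3:**
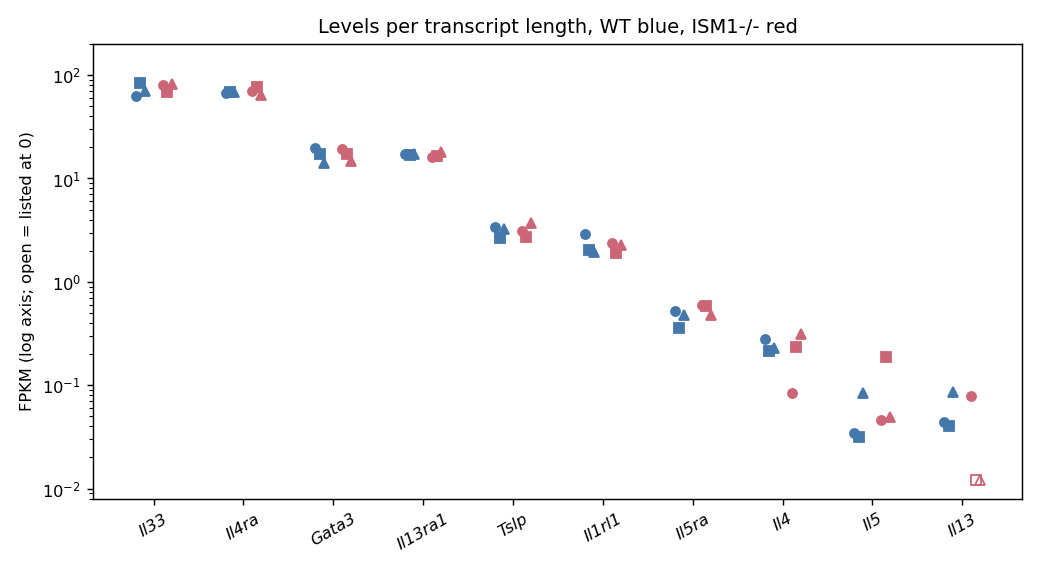
FPKM of the 10 genes in each library on a log axis, ordered by the mean, with WT in blue and ISM1-/- in red; circles, squares and triangles are replicates 1, 2 and 3, and open symbols at the foot are values listed at 0. Levels run from above 60 FPKM for *Il33* and *Il4ra* to below 0.1 FPKM for *Il13*.

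The order rests on the length behind each FPKM value. That length is within 1% of the length column of the table for only 25.8% of 19322 genes. It is 1310 bases against 2886 for *Il33* and 914 against 3978 for *Gata3*. With the length column, *Gata3* came after *Il13ra1*, at 3.93 against 17.0, and the other 8 genes kept their places. The edgeR comparison of genotypes does not use the length.

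Of the other receptor chains of these or related ligands, *Il7r*, which forms the TSLP receptor with *Crlf2* and also serves IL-7, rose in ISM1-/- lungs. It had 539, 553 and 539 reads in WT against 860, 651 and 773 reads in ISM1-/- libraries. All ISM1-/- libraries lay above all WT libraries. Levels were 13.9 CPM in WT and 19.1 CPM in ISM1-/- lungs, a log2 fold change of 0.46 (SE 0.0867, adjusted p = 0.0298, edgeR). The call was lost without WT replicate 2 (adjusted p = 0.131) and without ISM1-/- replicate 1 (adjusted p = 0.110). *Il7r* is also on the list of type 2 lymphocyte markers, whose summed level was 119 to 132 CPM in WT and 124 to 141 CPM in ISM1-/- libraries. That sum includes *Il7r* itself. Its largest part was *Rora*, at 62.7 to 67.7 CPM in WT and 62.9 to 73.9 CPM in ISM1-/- libraries. The T cell list summed to 63.0 to 122 CPM and 83.9 to 134 CPM, and the B cell list to 150 to 166 CPM and 172 to 305 CPM. The part of these cells in the *Il7r* result was not tested.

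None of the other chains on this list passed the edgeR test. *Crlf2*, the TSLP-binding chain, had a log2 fold change of 0.06 (adjusted p = 0.884, edgeR), and *Il1rap*, the partner of ST2, had 0.11 (adjusted p = 0.622). *Il2rg*, the common γ chain that joins IL-4Rα in the type I receptor, had 1056, 1085 and 1053 reads in WT against 1528, 1267 and 1124 reads in ISM1-/- libraries. Its CPM ranges did not overlap, but at a log2 fold change of 0.27 it did not pass (adjusted p = 0.148, edgeR) and DESeq2 called it (adjusted p = 0.0864). The chains that join IL-5Rα, *Csf2rb* and its close copy *Csf2rb2*, had -0.05 and -0.20 (adjusted p = 0.920 and 0.669), and reads shared between these copies make both uncertain. *Il17rb*, the IL-25 receptor chain, had 0.27 (adjusted p = 0.608). The decoy receptor gene *Il13ra2* had 0 to 4 counts per library.

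The ratio of the counts of both chains within a library was compared for 3 receptors. The ratio of *Il4ra* to *Il13ra1* was 2.41, 2.51 and 2.42 in WT and 2.65, 2.92 and 2.20 in ISM1-/- libraries. It was tight in WT, and the ISM1-/- ratios lay on both sides (difference of log2 ratios 0.07, exact permutation p = 0.6, 0.6 after Benjamini-Hochberg adjustment over the 3 ratios). The ratio of *Il7r* to *Crlf2* was 0.526, 0.517 and 0.555 in WT and 0.679, 0.562 and 0.951 in ISM1-/- libraries. Each ISM1-/- ratio exceeded each WT ratio, by 0.42 on the log2 scale in the mean, at the smallest p the test allows (exact permutation p = 0.1, adjusted 0.3). For *Il1rap* to *Il1rl1* the difference was 0.16 (exact permutation p = 0.5, adjusted 0.6).

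Of 63 other genes on the lists of type 2 ligands, receptor chains, transducers, inhibitors and targets, 56 were tested. Of these, 2 were called, both higher in ISM1-/- lungs (1.38% of all genes were called higher and 3.34% lower). DESeq2 called 5, beside 6.88% of all genes. Among the ligands, *Csf2* had 0.36 (adjusted p = 0.433, edgeR), *Il25* had 0 to 2 counts per library, and *Il9* and *Il3* had 0 counts in all libraries. Of 11 receptor chains tested, 1 was called.

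Transducers and inhibitors were not called by edgeR. Of 15 transducers and transcription factors, 0 were called by edgeR, 1 had an unadjusted p under 0.05 and DESeq2 called 0. Over all genes tested these shares were 4.72%, 15.8% and 6.88%. *Stat6*, which carries the IL-4Rα signal, had a log2 fold change of 0.01 with a 95% interval of -0.11 to 0.13 (adjusted p = 0.946). The lowest unadjusted p values were those of *Stat5a*, at -0.21 (adjusted p = 0.256), and *Tbx21*, the type 1 counterpart of *Gata3*, at 0.70 (adjusted p = 0.328). Of 6 feedback inhibitors, 0 were called by edgeR, 1 had an unadjusted p under 0.05 and DESeq2 called 0. *Sigirr*, which damps ST2 signalling, had 0.16 (adjusted p = 0.244) and the phosphatase gene *Ptpn6* had 0.25 (adjusted p = 0.342).

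Among 23 tested targets of IL-4 and IL-13, the edgeR call was *Postn*, which encodes the matrix protein periostin. It had 14823, 13891 and 13786 reads in WT against 18636, 17960 and 19546 reads in ISM1-/- libraries. The genotypes did not overlap, and the log2 fold change was 0.38 (SE 0.0755, adjusted p = 0.0351, edgeR). The call was lost without WT replicate 2 (adjusted p = 0.145), WT replicate 3 (adjusted p = 0.117) or ISM1-/- replicate 2 (adjusted p = 0.128). *Postn* is also expressed by fibroblasts. The fibroblast list, of which 5 of 9 genes fell (*Pi16*, *Dcn*, *Lum*, *Dpt* and *Col1a1*) and 0 rose, summed to 2254 to 2393 CPM in WT and 2074 to 2169 CPM in ISM1-/- libraries, and its part in the result was not tested.

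The other targets went in both directions. *Ccl11*, which encodes the eosinophil attractant eotaxin, had 94, 87 and 99 reads in WT against 60, 51 and 74 reads in ISM1-/- libraries, with all ISM1-/- libraries below WT (log2 fold change -0.62, adjusted p = 0.159, edgeR). *Alox15*, a lipoxygenase of eosinophils and IL-4-treated macrophages, had -0.82 and also had no overlap (adjusted p = 0.175, edgeR). DESeq2 called *Alox15* (adjusted p = 0.0727) and *Tff2*, a mucosal repair peptide, at an edgeR log2 fold change of 0.46 (adjusted p = 0.192 by edgeR and 0.0978 by DESeq2). The median log2 fold change of the 23 was -0.14.

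**Figure D4:**
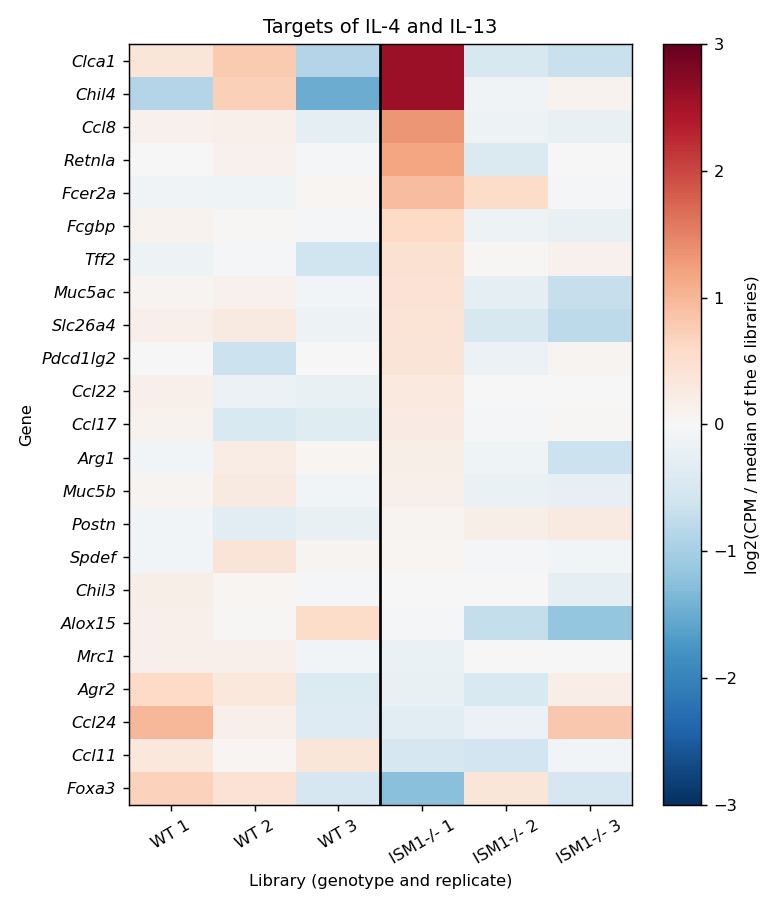
CPM of the 23 tested targets of IL-4 and IL-13 in each library, as log2 of the ratio to the gene's median over the 6 libraries, with red above and blue below the median and genes ordered by ISM1-/- replicate 1. That library holds the highest value for 12 of the 23 genes, with *Clca1* and *Chil4* in the darkest red.

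A single ISM1-/- library was often the highest in these targets and in the pathway lists as a whole, a pattern picked out after its values were seen. ISM1-/- replicate 1 was the highest of the 6 libraries for 12 of 23 targets, for 29 of 63 tested genes over all pathway lists with the 7 genes included, and for 3209 of all 18689 genes tested. It also had the highest summed level of the B cell list, 305 CPM. For 4 targets it was at least 2 times the next library. *Clca1*, a goblet cell product, had 425, 634 and 184 reads in WT against 2234, 241 and 215 reads in ISM1-/- libraries. *Retnla*, a marker of IL-4-treated macrophages, had 1447, 1773 and 1438 reads in WT against 3743, 1092 and 1542 reads in ISM1-/- libraries. *Chil4* had 153 counts and *Ccl8* had 106 counts in that library, and at most 41 and 46 in the others. None of these 4 passed the test (adjusted p from 0.333 to 0.616, edgeR). Of the 7 tested genes followed here, *Il5ra* was highest in the same library, and its *Il4*, *Il5* and *Il13* counts were 2, 3 and 4.

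Genes next to the 10 in the genome were examined as well. Of 12 tested neighbours, 0 were called by edgeR. At an unadjusted p under 0.05 there were 3 (15.8% of all genes), and DESeq2 called 2 (6.88% of all genes). The DESeq2 calls were *Il21r* (adjusted p = 0.0390, DESeq2) and *Il18rap*, in the receptor cluster of *Il1rl1* (adjusted p = 0.0961, DESeq2). The ranges of *Il18rap* overlapped, and its log2 fold change was 0.43 (adjusted p = 0.222, edgeR). *Il21r*, beside *Il4ra*, had 305, 250 and 280 reads in WT against 603, 400 and 301 reads in ISM1-/- libraries (log2 fold change 0.61, adjusted p = 0.169, edgeR). *Il1r2*, in the receptor cluster of *Il1rl1*, had 11, 14 and 21 against 30, 38 and 24 counts, with no overlap (0.98, adjusted p = 0.201). *Rad50*, which lies between *Il13* and *Il5*, and *Kif3a*, which lies beside *Il4*, had 0.07 and -0.07 (adjusted p = 0.685 and 0.749). Antisense genes overlap *Il4ra* (*Gm44876*, 20 to 35 counts) and *Gata3* (*Gm13256*, 8 to 23 counts). The genes *4930412O13Rik* (8 to 23 counts) and *9230102O04Rik* (0 to 4 counts) also overlap *Gata3*, and *4930455D15Rik* (0 to 2 counts) overlaps *Tslp*.

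As a description over 6 libraries, which share their scaling and depth, Pearson's r of log2 CPM between pairs of the 7 genes ran from -0.73 for *Tslp* and *Il4ra* to 0.78 for *Tslp* and *Il13ra1*. The genes most like each in pattern among 15875 compared were *Gm12183* (r = 0.996) and *Fam118b* (0.990) for *Il33*, *4831440E17Rik* (0.997) and *Cmc4* (0.989) for *Tslp*, and *Gbp2* (0.987) and *Apol10b* (0.982) for *Il1rl1*. They were *S100a16* (0.978) and *Nfkbil1* (0.978) for *Il4ra*, *Ghitm* (0.999) and *Cfap36* (0.994) for *Il13ra1*, *H2-Q10* (0.994) and *Cdkn2c* (0.987) for *Il5ra*, and *Tnrc6c* (0.995) and *Tacr1* (0.990) for *Gata3*. Each is among the best matches out of 15875 genes over only 6 libraries, so a high r here is no evidence that the genes share control.

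Markers of the cells that make or receive these signals were counted on fixed lists. Of 13 type 2 lymphocyte markers, 3 were called higher and 0 lower, beside 1.38% and 3.34% of all genes tested. The 3 were *Il7r*, the costimulator gene *Icos* (log2 fold change 0.71, adjusted p = 0.0446, edgeR) and *Klrg1* (1.05, adjusted p = 0.0898). *Gata3*, *Il1rl1*, *Rora* and 7 further markers were not called. Of the 13, 4 had an unadjusted p under 0.05 and DESeq2 called 3. Means were higher in ISM1-/- lungs for 10 and lower for 3, with *Areg* lowest at -0.68 (adjusted p = 0.306, edgeR). *Icos* and *Klrg1* are also expressed by other T cells and natural killer cells. The B cell markers *Ms4a1*, *Blk* and *Cd79a* rose, and of 7 plasma cell markers 1 rose (*Jchain*). Of 12 T cell markers, 0 were called by edgeR, 4 had an unadjusted p under 0.05 and DESeq2 called 3. All 12 had a higher mean in ISM1-/- lungs, with a median log2 fold change of 0.31. Of 6 tested eosinophil markers, 0 were called by edgeR, 1 had an unadjusted p under 0.05 and DESeq2 called 1. Of 7 tested mast cell and basophil markers, 1 was called by edgeR (*Mcpt4*, lower), 5 had an unadjusted p under 0.05 and DESeq2 called 2. The ranges of the genotypes did not overlap for 5 of the 7, with ISM1-/- below WT for 4 and above WT for 1. Of all genes tested, 15.8% had an unadjusted p under 0.05 and DESeq2 called 6.88%. Ranges were apart for 21.6% of all genes, with ISM1-/- below WT for 12.3% and above WT for 9.33%.

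Of the cell types that can make alarmins, 6 of 9 airway epithelial markers fell (*Foxj1*, *Cyp2f2*, *Scgb1a1*, *Bpifa1*, *Scgb3a2* and *Krt15*), beside 3.34% of all genes called lower. The list summed to 23785 to 25650 CPM in WT and 15448 to 19462 CPM in ISM1-/- libraries. Most of each sum was *Scgb1a1*, with means of 20919 CPM in WT and 14669 CPM in ISM1-/- lungs. *Il33* and *Tslp* were not called. Of 9 alveolar type 2 and 10 alveolar macrophage markers, 0 were called by edgeR, 1 of each list had an unadjusted p under 0.05 and DESeq2 called 0 of each. Of 9 adipocyte markers, 8 fell (*Adipoq*, *Cfd*, *Plin1*, *Fabp4*, *Cidec*, *Lep*, *Pck1* and *Retn*). Of 10 cardiomyocyte markers, 1 was called by edgeR (*Myl7*, lower), 10 had an unadjusted p under 0.05 and DESeq2 called 0. All 10 had a lower mean in ISM1-/- lungs. The paper places lung adiponectin in alveolar type 2 cells, and the source of the adipocyte and cardiomyocyte marker transcripts was not tested. The cardiomyocyte list summed to 551 to 1678 CPM in WT and 301 to 587 CPM in ISM1-/- libraries. WT replicate 1 was the highest library for every gene on that list. Of 10 glucocorticoid response genes, *Zbtb16* rose (log2 fold change 3.05, adjusted p = 0.0297). Its level was 13.1 to 23.2 CPM in WT libraries and 58.4, 66.7 and 286 CPM in ISM1-/- libraries, with replicate 3 far above the other libraries. The part of these marker differences in the values of the 10 genes was not tested.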

How the data were processed

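RNA-seq libraries were strand-specific and made from poly-A RNA. The authors filtered the reads, aligned them to GRCm38/mm10 by STAR, and deposited unnormalized read counts for each gene, and they also deposited FPKM values, which divide the counts by library total and a gene length. The counting program, annotation and strand setting are not given in the sources used here. Genotypes came from the sample labels.

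The comparison used edgeR 4.0.16 under R 4.3.3. A gene entered it if 1 library or more reached 0.5 CPM. TMM scaling and the quasi-likelihood test were applied to all 18689 such genes, with Benjamini-Hochberg adjustment. A gene was called at an adjusted p under 0.1. Fold changes are ISM1-/- over WT. Nothing states that libraries with 1 number share a litter or day, and each pair of libraries of the same genotype differed by more than sampling noise. Alternatives were DESeq2 1.42.0, other scaling and filters, limma 3.58.1 on log2(FPKM + 0.1), the replicate block and leaving out each library, and the length column was added after the data were seen.

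The 10 genes and the gene lists were chosen with earlier results of these data known. Named genes are the 10, *Ism1*, partner chains, overlapping genes, called genes of the lists, the 2 genes of lowest p in each pathway list, and the 2 genes most like each in pattern. *Stat6*, *Tff2*, *Rad50*, *Kif3a*, *Clca1*, *Retnla*, *Chil4*, *Ccl8*, *Rora*, *Prg2*, *Ear1*, *Ear2* and *Siglecf* were named after their values were seen. The same holds for *Epx*, *Il9*, *Il3*, *Sftpc*, *Alox15*, *Ccr3*, *Areg* and *Il18rap*. Of the 13 neighbours listed, 12 were found by symbol. A result for a further marker gene is not reported here.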

Additional observations from a re-analysis of the deposited data

How the results depend on the processing

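None of the 7 tested genes was called under the alternatives that included it, over 90 fits of single genes under 13 alternatives. The sign turned in 9 of these fits, each with 1 library left out. With 1 library left out, the log2 fold change ranged from -0.19 to 0.13 for *Il1rl1* (positive without WT replicate 1 or ISM1-/- replicate 2), from -0.089 to 0.14 for *Tslp* (negative without WT replicate 2 or ISM1-/- replicate 3) and from -0.10 to 0.14 for *Gata3* (negative without WT replicate 3 or ISM1-/- replicate 1). It ranged from -0.075 to 0.019 for *Il13ra1* (positive without ISM1-/- replicate 1 or 2) and from -0.0098 to 0.11 for *Il4ra* (negative without ISM1-/- replicate 2). It kept its sign for *Il33*, from 0.0051 to 0.22, and for *Il5ra*, from 0.17 to 0.43. *Il4*, *Il5* and *Il13* were fitted under 1 alternative, without the filter, and had log2 fold changes of -0.21, 0.88 and -0.99 (adjusted p = 0.943, 0.752 and 0.770, edgeR).

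The count of all genes called was 882, and it was 1285 with DESeq2, 1632 with no filter on low counts, 455 at an adjusted p under 0.05 and 106 with a 2-fold minimum. It was 150 to 1470 with 1 library left out, lowest without WT replicate 2 and highest without ISM1-/- replicate 3. It was 341 without WT replicate 3, 247 without ISM1-/- replicate 1 and 261 without ISM1-/- replicate 2. The other pathway genes called numbered 2, and were 5 with DESeq2, 8 with no filter, 0 with a 2-fold minimum and 0 to 8 with 1 library left out, from the same 2 libraries. The cause was not tested. The places of 2 genes changed in the order of levels with the length column.

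With the replicate number as a block, 1105 genes, 0 of the 10 genes and 3 other pathway genes were called. The deviations of same-numbered libraries correlated at -0.03, 0.03 and 0.06, and those of differently numbered libraries at -0.09 to 0.08. Not every library correlated best with its own number. Deviations from a mean of 3 libraries cannot show whether libraries of the same number share a litter or day. Depth limits *Il4*, *Il5* and *Il13*, for which 12 to 30 reads were counted in all 6 libraries.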
